A study of Mus musculus with 59 samples.

Results

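The genes described here are 9 genes of hippocampal neurogenesis and cell division, Dcx, Sox11, Prox1, Eomes, Mki67, Top2a, Igfbpl1, Mcm2 and Nes, out of 54232 mouse genes counted in each library. They were named as a list of symbols and matched to the gene identifiers of the deposited counts, and all 9 were found. The list was chosen with earlier results of these data known. New granule neurons are added to the dentate gyrus of the adult mouse hippocampus throughout life. Nestin-positive radial glia-like stem cells in the subgranular zone divide into intermediate progenitors that carry the T-box factor Eomes (TBR2), these give rise to neuroblasts rich in doublecortin, and the neuroblasts mature into granule neurons that keep the homeobox factor Prox1. Cells in cycle along this path, as well as dividing glial precursors, carry Mki67, Top2a and the replication helicase subunit Mcm2.

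Polyadenylated RNA was sequenced from 12 C57BL/6 mice aged 10 weeks (backcrossed to C57BL/6J, per the study's methods), with 1 library for each mouse and dissected region (hippocampus, cerebellum, brainstem, striatum and cortex) and 59 libraries in all. The WT group held WT-70 and WT-77 with WT-220 and WT-221. The Atxn1 154Q/2Q group (154Q below, animals 154Q-69 and 154Q-71 with 154Q-75 and 154Q-76) is a knockin model of spinocerebellar ataxia type 1, with a CAG repeat expanded to 154 glutamines in 1 endogenous Atxn1 allele and the normal mouse allele (2Q) on the other chromosome. The third group, of genotype Atxn1 154Q[V591A;S602D]/2Q (154Q-AXH below, animals 154Q-AXH-207 and 154Q-AXH-209 with 154Q-AXH-217 and 154Q-AXH-218), carries the same expanded allele with 2 further substitutions, V591A and S602D. They are numbered as in the human protein and were placed by CRISPR-Cas9 editing of the 154Q allele through a founder animal. They keep the expanded ATXN1 from binding the transcriptional repressor CIC, and the normal 2Q allele does not carry them. Both mutant groups therefore share the expansion and differ in CIC binding of the expanded protein. The region and genotype fits ask whether the genes of neurogenesis and division differ from WT in each mutant, and whether they differ between the mutants. Brainstem of mouse 154Q-AXH-217 is not analysed here, so that group held 3 libraries. Values for single mice are given in the order of these names. A mouse is taken as 1 animal of its group, and litters and days of dissection are not in the labels.

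Levels are given as CPM, a gene's counts relative to all read pairs counted on genes in its library. The hippocampal library of mouse 154Q-76, called the mixed library here, was left out of every hippocampal value unless named. It held both Xist and the Y-linked gene Ddx3y above 3 log2 CPM, and the summed level of 7 brainstem markers was 348 CPM there, against 1.74 to 3.997 CPM in the other 11 hippocampal libraries and a median of 734 CPM in WT brainstem. Its own values included 31.0 CPM for Dcx, 1.79 CPM for Top2a and 15.1 CPM for Nes. The 7 hippocampal markers summed to 216.8 to 521 CPM in the 11 libraries used and to at most 161 CPM in any library of the other regions. These 11 libraries held 69.5 M to 106 M read pairs counted on genes. The cortical library labelled WT-221 held Xist at 8.92 log2 CPM, while the hippocampal library of that mouse was at 1.10. Among the 11 hippocampal libraries used, 0 WT, 1 154Q and 1 154Q-AXH library had Xist above Ddx3y. The numbers of the 154Q mice belong to a lower series and those of the 154Q-AXH mice to a higher one, with 2 WT mice in each, so only the WT mice tell a shift between the series from one between genotypes. In bulk tissue, fewer cells of a type and less RNA per cell cannot be told apart.

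In WT hippocampus the members spanned a wide range per length of transcript. Prox1, the homeobox factor that granule neurons of the dentate gyrus keep for life, had the highest level, with 15.4 ± 2.85 RPKM (CPM per kilobase of exon, SD, n = 4). It was followed by Sox11, a SoxC factor of immature neurons (3.18 ± 0.333 RPKM, SD, n = 4), Dcx, a microtubule-associated protein of migrating neuroblasts (2.21 ± 0.299 RPKM), and Nes, an intermediate filament of stem cells and of vessel cells (2.19 ± 0.271 RPKM). The ranges of Dcx and Nes overlapped. Igfbpl1, a secreted protein enriched in neuroblasts, was at 1.54 ± 0.425 RPKM and Mcm2 at 0.821 ± 0.0684 RPKM. The lowest were Mki67, the nuclear antigen of dividing cells, at 0.536 ± 0.131 RPKM, Eomes at 0.441 ± 0.281 RPKM, and Top2a, the topoisomerase that untangles replicated chromosomes, at 0.434 ± 0.0836 RPKM, and their ranges overlapped.

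**Figure D1:**
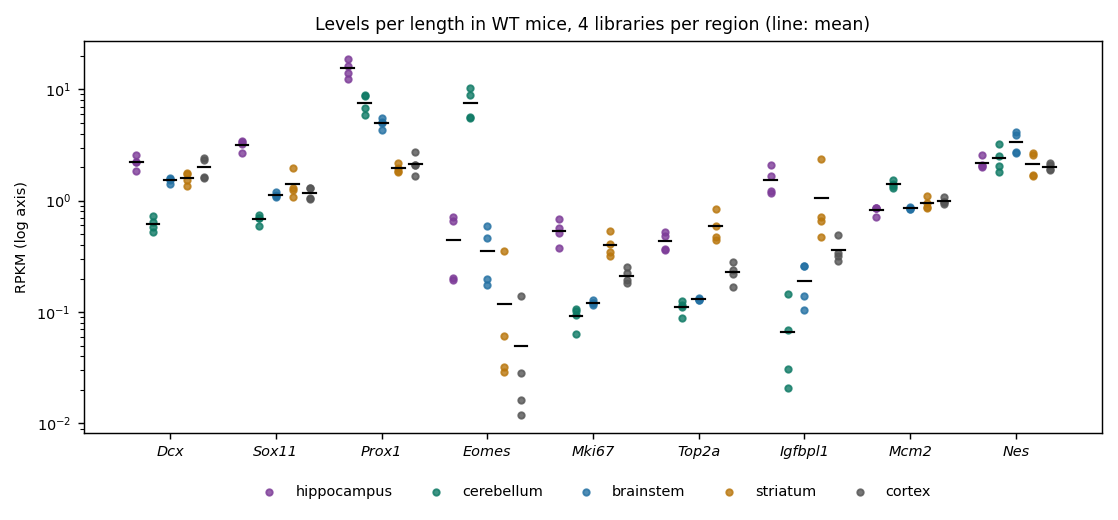
Level per length (RPKM, log axis) of each gene in the 4 WT libraries of each of 5 regions, with a line at the mean. Prox1 and Sox11 were highest in hippocampus, Eomes was highest in cerebellum, and Nes had its highest mean in brainstem.

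In WT mice 6 of the 9 members were higher in hippocampus than in cerebellum, brainstem or cortex, and 4 than in striatum. Against WT cerebellum, 6 members were higher and 2 lower at an adjusted p under 0.05, where 63.6% of all tested genes were called. Against WT brainstem these counts were 6 and 1 (60.7% of genes called), against striatum 4 and 1 (58.2%), and against cortex 6 and 1 (55.4%), so most genes of any kind differ between regions. Prox1 was 7.88-fold higher in hippocampus than in striatum (log2 difference 2.98, SE 0.16, adjusted p = 2.71e-11, edgeR quasi-likelihood F test, Benjamini-Hochberg over all tested genes) and 2.07-fold higher than in cerebellum. Igfbpl1 was 22.8-fold higher in hippocampus than in cerebellum, where it had 5 to 42 counts per library, and its difference from striatum was not called (log2 difference 0.46, SE 0.36). Dcx was 3.63-fold higher in hippocampus than in cerebellum, 1.45-fold higher than in brainstem and 1.39-fold higher than in striatum. Its difference from cortex was not called (log2 difference 0.17, SE 0.13, adjusted p = 0.295, same edgeR test), with 1.99 ± 0.436 RPKM in WT cortex. Mki67 was 5.81-fold higher in hippocampus than in cerebellum, 4.39-fold higher than in brainstem and 2.52-fold higher than in cortex. Against striatum its log2 difference was 0.39 (SE 0.18, adjusted p = 0.0674, same edgeR test), and with mouse as a block this difference passed the threshold (adjusted p = 0.0449). Top2a was lower in hippocampus than in striatum (log2 difference -0.47, SE 0.17, adjusted p = 0.0266, same edgeR test) and higher than in the other 3 regions. Without mouse WT-220, whose striatal library had the highest Mki67, Top2a and Igfbpl1 among WT, Top2a was no longer called between hippocampus and striatum, and Mki67 and Igfbpl1 were called. The Top2a call was also lost without WT-77.

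Eomes, Mcm2 and Nes followed other orders. Eomes, which also marks unipolar brush cells of the cerebellum, was at 7.54 ± 2.33 RPKM in WT cerebellum and lower by 4.03 on the log2 scale in hippocampus (SE 0.42, adjusted p = 4.17e-08, edgeR quasi-likelihood F test, Benjamini-Hochberg over all tested genes). Mcm2 was highest in cerebellum, at 1.404 ± 0.1001 RPKM, and lay between 0.821 and 0.994 RPKM on average in the other regions. Nes was highest in brainstem, at 3.34 ± 0.764 RPKM, with a log2 difference of hippocampus to brainstem of -0.60 (SE 0.18, adjusted p = 0.00636, same edgeR test), and its means in the other 4 regions were 2.02 to 2.41 RPKM. The cortex comparison called 7 members with or without mouse WT-221.

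Dcx (chrX:143855842-143933311, GRCm38) was the member that rose in the hippocampus of 154Q mice. Its level was 33.0, 23.6, 28.6 and 28.2 CPM in the 4 WT mice. It was 49.7, 39.9 and 36.8 CPM in 154Q-69, 154Q-71 and 154Q-75, and 35.9, 34.3, 42.0 and 38.8 CPM in the 4 154Q-AXH mice. All libraries of both mutants lay above all WT libraries. The rise was 1.49-fold in 154Q (log2 fold change 0.57, SE 0.12, adjusted p = 0.0165, higher in 3 of 3 libraries, edgeR quasi-likelihood F test, Benjamini-Hochberg over all tested genes), and Dcx was the only one of the 9 members called, where 6.06% of 21754 tested genes were. In 154Q-AXH the log2 fold change was 0.41 (SE 0.11, adjusted p = 0.0656, same edgeR test), and 0 members were called by edgeR against 3.61% of genes. At an unadjusted p under 0.05 there were 4 members in each mutant, with 20.6% and 18.7% of all tested genes in 154Q and 154Q-AXH. DESeq2 called 3 members in 154Q and 4 in 154Q-AXH, Dcx among them in both, where it called 9.79% and 7.4% of genes. Without mouse 154Q-69, which had the highest Dcx, the difference in 154Q was 0.44 (adjusted p = 0.0915, edgeR), and with the mixed library of 154Q-76 included it was 0.48 (adjusted p = 0.0534, edgeR).

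**Figure D2:**
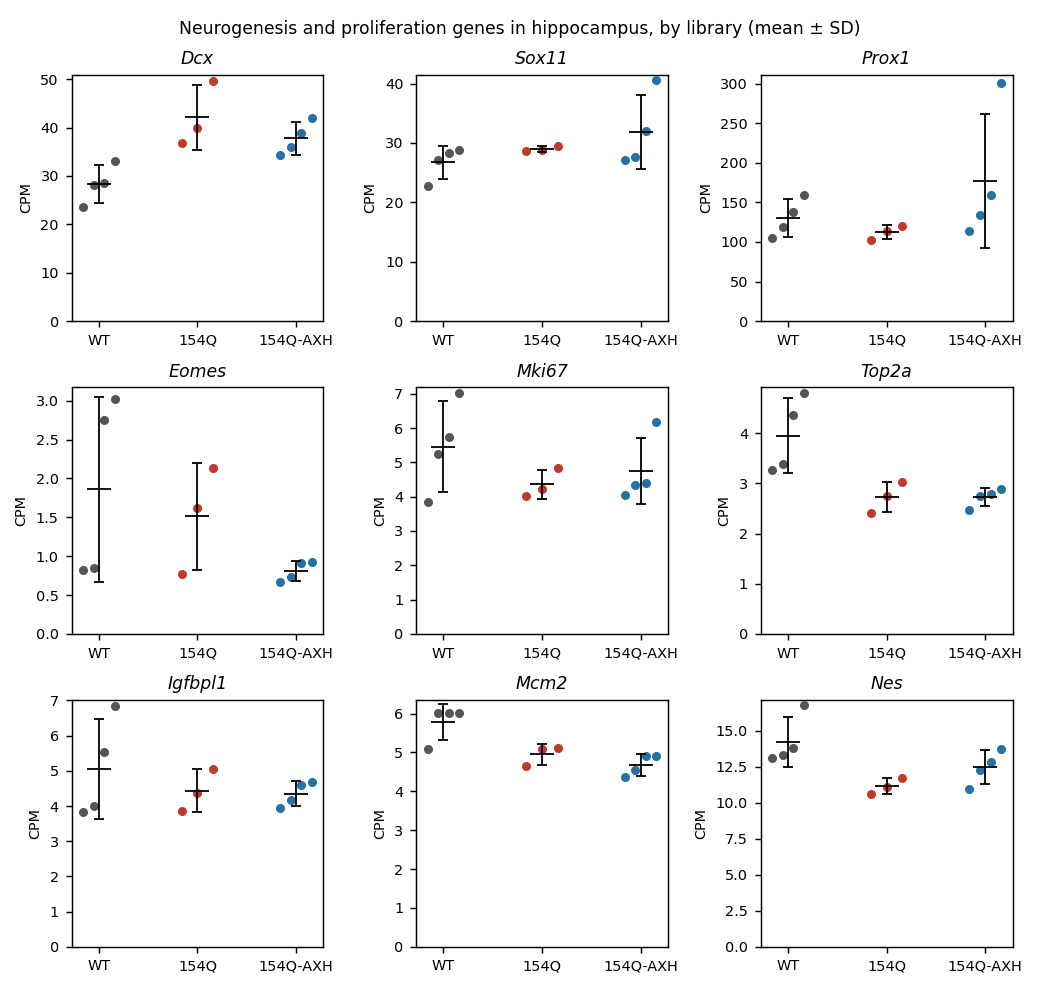
Level (CPM, each axis from 0) of each gene in the 11 hippocampal libraries used, 1 point per mouse, with mean and SD in black (WT n = 4, 154Q n = 3, 154Q-AXH n = 4). Dcx lay above the WT range and Top2a below it in all mutant libraries, Eomes was split among the WT mice, and 1 154Q-AXH mouse stood high for Prox1, Sox11 and Mki67.

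The other members carried by neuroblasts, Sox11 and Igfbpl1, did not pass the test's threshold in either mutant. Sox11 (chr12:27334264-27342574) was at 26.7 ± 2.73 CPM in WT (SD, n = 4), 29.0 ± 0.470 CPM in 154Q (n = 3) and 31.9 ± 6.24 CPM in 154Q-AXH (n = 4), and the groups overlapped. Its log2 fold changes were 0.12 (SE 0.13) and 0.25 (SE 0.12), with adjusted p = 0.644 and 0.270 by edgeR. The 154Q-AXH mean rested in part on 154Q-AXH-218, which had 40.6 CPM against 27.2 to 32.1 CPM in the other 3. Igfbpl1 (chr4:45809468-45826923) was at 5.54, 6.85, 3.84 and 4.01 CPM in the 4 WT mice, and all mutant libraries, at 3.86 to 5.06 CPM, lay within that range. The WT mice of the lower number series lay above those of the higher one. Its log2 fold changes were -0.21 (SE 0.18) in 154Q and -0.24 (SE 0.17) in 154Q-AXH. With the number series as a term in the fit they were -0.49 (SE 0.14, adjusted p = 0.0595, edgeR) and 0.14 (SE 0.14, adjusted p = 0.717, edgeR).

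Prox1 (chr1:190118035-190170714) varied most in 154Q-AXH mice. It was at 105, 119, 138 and 160 CPM in WT and at 121, 103 and 114 CPM in 154Q. In 3 of the 154Q-AXH mice it was at 113, 160 and 135 CPM, and in 154Q-AXH-218 it was at 301 CPM, the highest of the 11 libraries. The log2 fold change was -0.22 in 154Q (SE 0.27, adjusted p = 0.706, edgeR) and 0.44 in 154Q-AXH (SE 0.25, adjusted p = 0.367, edgeR), and the latter was 0.06 without 154Q-AXH-218. Prox1 shares 1.58% of its exon bases with the neighbouring gene Prox1os, and the counts used here do not separate strands.

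The high Prox1 of that mouse came with high markers of dentate granule neurons. The summed level of 12 such markers, which do not include Prox1, was 565 to 697 CPM in WT and 366 to 399 CPM in 154Q. In 154Q-AXH it was 453, 585 and 522 CPM in the first 3 mice, and 995 CPM in 154Q-AXH-218. In that mouse the choroid plexus markers were also at their lowest, with a sum of 80.8 CPM against 217.2 to 5762 CPM in the other 10 libraries. The part of tissue composition in the Prox1 values was not tested.

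**Figure D3:**
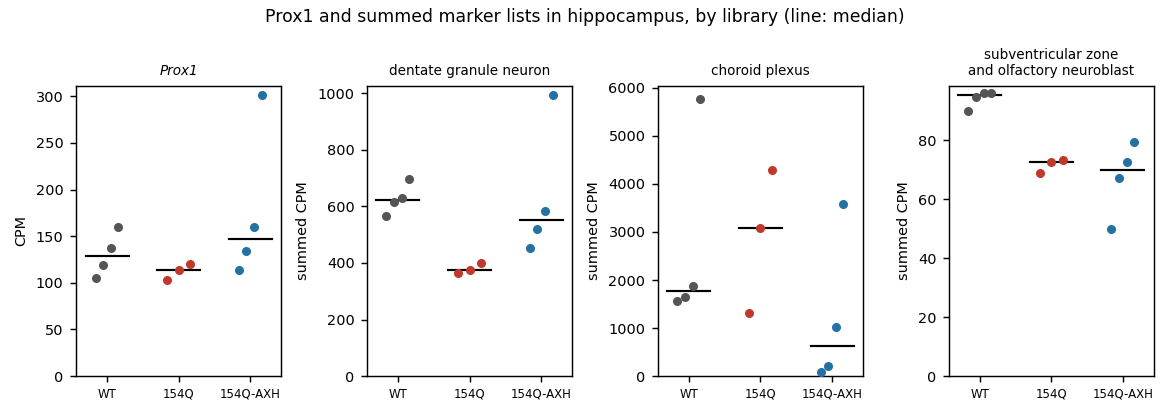
Prox1 (CPM) and the summed CPM of 3 marker lists in the 11 hippocampal libraries used, 1 point per mouse, with a line at the group median (axes from 0). The 154Q-AXH mouse with 301 CPM of Prox1 also had the highest dentate granule neuron sum, 995 CPM, and the subventricular zone and olfactory neuroblast sums of all mutant libraries lay below those of WT.

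Eomes (chr9:118478212-118486132) divided the WT hippocampi. It was at 3.02 and 2.75 CPM in WT-70 and WT-77, and at 0.820 and 0.853 CPM in WT-220 and WT-221. The 154Q libraries were at 2.14, 1.62 and 0.770 CPM, and the 4 154Q-AXH libraries were at 0.662 to 0.919 CPM. The 154Q-AXH libraries thus lay around the WT mice of their own, higher number series. The log2 fold change of 154Q-AXH was -1.24 (SE 0.46, adjusted p = 0.167, edgeR), and with the number series as a term it was -0.04 (SE 0.39, adjusted p = 0.979, edgeR). For 154Q the values were -0.35 (SE 0.44) without and -0.93 (SE 0.28, adjusted p = 0.0726, edgeR) with that term. Of its exon bases, 2.84% lie in the overlapping gene Gm33460.

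Among the genes of stem cells and of division, all 4 had lower means in both mutants, and none passed the threshold in edgeR. Top2a (chr11:98992943-99024189) was at 3.39, 3.27, 4.37 and 4.80 CPM in the 4 WT mice. It was at 2.76, 3.02 and 2.41 CPM in the 154Q mice, and at 2.75, 2.89, 2.47 and 2.79 CPM in the 154Q-AXH mice. All 7 mutant libraries lay below all 4 WT libraries. Each mutant group lay wholly outside the WT range for 3 of the 9 members, Dcx, Top2a and Nes in 154Q and Dcx, Top2a and Mcm2 in 154Q-AXH, where the groups did not overlap for 19.6% and 11.9% of all tested genes. The log2 fold change was -0.52 in both mutants (SE 0.15 and 0.14), with adjusted p = 0.0619 in 154Q and 0.0618 in 154Q-AXH by edgeR's quasi-likelihood F test, adjusted by Benjamini-Hochberg over all tested genes. DESeq2 gave adjusted p = 0.0123 and 0.00785. With the number series as a term the values were -0.28 in 154Q (adjusted p = 0.215, edgeR) and -0.75 in 154Q-AXH (adjusted p = 0.00958, edgeR).

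Nes (chr3:87971078-87980451) was at 13.8, 13.3, 13.1 and 16.8 CPM in the 4 WT mice and at 11.1, 10.6 and 11.7 CPM in the 154Q mice. It was at 10.95, 12.9, 12.3 and 13.8 CPM in the 154Q-AXH mice. The 154Q libraries lay below the WT range, and the 154Q-AXH libraries overlapped it. The log2 fold changes were -0.35 (SE 0.10, adjusted p = 0.0626, edgeR) and -0.19 (SE 0.09, adjusted p = 0.289, edgeR). With DESeq2 the 154Q difference had adjusted p = 0.0164. Nes lay below WT in every region in both mutants, with log2 fold changes of -0.43 to -0.26 in 154Q and -0.32 to -0.19 in 154Q-AXH, and none of them was called by edgeR. The WT mice were split by number series in part of these regions. WT-70 and WT-77 had 17.8 and 17.2 CPM in brainstem, against 25.1 and 27.4 CPM in WT-220 and WT-221. In striatum these values were 10.6 and 10.7 against 15.8 and 16.9 CPM, and in cerebellum 12.01 and 13.6 against 16.2 and 20.8 CPM. With the number series as a term the log2 fold changes were -0.28 to 0.02 in 154Q, with -0.28 in hippocampus (adjusted p = 0.180, edgeR), and -0.59 to -0.27 in 154Q-AXH, with -0.27 in hippocampus (adjusted p = 0.275, edgeR). Of these, Nes in 154Q-AXH striatum was called (-0.59, adjusted p = 0.0363, edgeR). The regions came from the same mice and both mutants are set against the same WT libraries, so these values are not independent of each other.

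Mcm2 (chr6:88883474-88898780) was at 5.08 CPM in WT-70 and at 6.03, 6.01 and 6.01 CPM in the other WT mice. It was at 4.64, 5.11 and 5.09 CPM in the 154Q mice, and at 4.36, 4.91, 4.90 and 4.54 CPM in the 154Q-AXH mice. Of the mutant groups, 154Q-AXH lay below the WT range, and 154Q overlapped it only at the level of WT-70. The log2 fold changes were -0.23 (SE 0.09, adjusted p = 0.189, edgeR) and -0.31 (SE 0.09, adjusted p = 0.0746, edgeR), and DESeq2 gave the latter adjusted p = 0.0216. With the number series as a term, Mcm2 had values of -0.17 in 154Q (SE 0.11, adjusted p = 0.371, edgeR) and -0.36 in 154Q-AXH (SE 0.10, adjusted p = 0.108, edgeR).

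Mki67 (chr7:135689784-135716361) overlapped between all groups. It was at 5.25, 3.84, 5.74 and 7.02 CPM in the 4 WT mice, at 4.85, 4.21 and 4.02 CPM in the 154Q mice, and at 4.40, 4.33, 4.06 and 6.18 CPM in the 154Q-AXH mice. The log2 fold changes were -0.31 (SE 0.19) and -0.19 (SE 0.18), with adjusted p = 0.398 and 0.603 by edgeR. With the number series as a term, Mki67 had values of -0.05 in 154Q (SE 0.20, adjusted p = 0.920, edgeR) and -0.43 in 154Q-AXH (SE 0.18, adjusted p = 0.281, edgeR). At 286 to 552 counts per library its own spread among WT mice, with a coefficient of variation of 24.1%, was larger than that of Top2a (18.9%) and Mcm2 (8.04%).

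The sequences before the starts of Top2a, Mki67, Mcm2 and Dcx are shown because the 3 division genes had lower means than WT in both mutants and Dcx higher ones. The RefSeq table (GRCm38.p6) held 8 of the 9 members. The 250 bases before the start were searched on both strands for motifs of cycling genes and for octamers that CIC binds. Other forms of the CIC motif were not searched. These were the CCAAT box (CCAAT, bound by NF-Y), the CHR hexamer of cell cycle genes (TTTGAA), 4 E2F octamers (TTTGGCGC, TTTCCCGC, TTTGCCGC and TTTCGCGC) and the CIC octamers (TGAATGAA and TGAATGGA). The matches do not overlap each other in the 4 windows printed. In the lines that follow, each sequence runs 5′ to 3′ in gene direction and ends at the base before the start, and capitals mark CCAAT and CHR letters on either strand.
Top2a (chr11:99024190-99024439, minus strand): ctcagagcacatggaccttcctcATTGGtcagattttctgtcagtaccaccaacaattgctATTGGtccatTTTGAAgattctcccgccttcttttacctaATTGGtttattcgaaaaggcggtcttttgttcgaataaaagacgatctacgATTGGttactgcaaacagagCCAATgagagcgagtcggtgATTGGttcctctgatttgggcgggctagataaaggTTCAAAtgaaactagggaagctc
Mki67 (chr7:135716380-135716629, minus strand): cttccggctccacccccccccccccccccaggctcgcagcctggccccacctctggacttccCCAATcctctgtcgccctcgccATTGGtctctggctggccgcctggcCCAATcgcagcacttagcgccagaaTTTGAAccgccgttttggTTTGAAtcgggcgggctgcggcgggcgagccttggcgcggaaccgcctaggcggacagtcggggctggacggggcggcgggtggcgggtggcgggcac
Mcm2 (chr6:88898781-88899030, minus strand): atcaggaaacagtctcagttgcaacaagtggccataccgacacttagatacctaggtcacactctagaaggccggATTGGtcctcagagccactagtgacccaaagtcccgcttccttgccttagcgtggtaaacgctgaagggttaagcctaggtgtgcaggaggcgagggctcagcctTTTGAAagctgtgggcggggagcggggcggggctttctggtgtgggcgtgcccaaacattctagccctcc
Dcx (chrX:143933220-143933469, minus strand): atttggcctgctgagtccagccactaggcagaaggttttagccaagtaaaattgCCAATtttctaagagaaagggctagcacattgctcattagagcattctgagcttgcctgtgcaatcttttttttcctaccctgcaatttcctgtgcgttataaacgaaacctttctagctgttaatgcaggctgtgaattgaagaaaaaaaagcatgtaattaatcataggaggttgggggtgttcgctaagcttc

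Top2a held 6 CCAAT boxes and 2 CHR hexamers, Mki67 held 3 and 2, and Mcm2 held 1 of each. Dcx held 1 CCAAT box before the first of its 2 starts and no CHR hexamer. Of 32851 RefSeq windows of this length, 33.9% held a CCAAT box and 15.99% a CHR hexamer. A CCAAT box was found in 6 of the 8 members and a CHR hexamer in 4, the fourth being Sox11. The CIC octamers searched, in 2.07% of all windows, and the E2F octamers searched, in 1.86%, were in none of the 10 windows of these 8 members. Of the members, Dcx and Prox1 have 2 starts each. A match is a run of letters and no record of binding.

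No member passed the threshold between the mutants. In the hippocampus, 154Q-AXH against 154Q called 4 of 21754 genes (0.0184%) and 0 of the 9 members by edgeR. Prox1 was the 1 member at an unadjusted p under 0.05, as were 7.43% of genes (log2 difference 0.66, SE 0.27, adjusted p = 0.663, edgeR). In the fit without 154Q-AXH-218, 0 members were under that limit. DESeq2 also called 0 members (0.0913% of genes). The log2 differences of Top2a, Igfbpl1 and Mcm2 were -0.0011, -0.03 and -0.08, with SE 0.16, 0.19 and 0.09. Dcx differed by -0.16 (SE 0.12). The 2 mutants come from different number series, so a shift between the series would enter these differences. With the series as a term, Top2a differed by -0.47 (SE 0.18, adjusted p = 0.348, edgeR) and Igfbpl1 by 0.63 (SE 0.20, adjusted p = 0.264, edgeR). Mcm2 then differed by -0.19 (SE 0.15) and Dcx by -0.17 (SE 0.21), and 0 members were called. The difference of Eomes was -0.89 (SE 0.51) without that term and 0.89 (SE 0.48) with it.

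Further genes of the same steps were read from lists of known markers. For comparison, 6.06% of all tested genes were called in 154Q hippocampus and 3.61% in 154Q-AXH. The shares at an unadjusted p under 0.05 were 20.6% and 18.7%. Of 12 stem cell and progenitor genes, 2 were lower in 154Q hippocampus and 1 in 154Q-AXH, with list medians of -0.07 and -0.01 against medians over all tested genes of 0.0039 and -0.0016. Id4, an inhibitor of bHLH factors in neural stem cells, fell from 107 ± 11.4 CPM in WT to 75.6 ± 5.45 CPM in 154Q and 80.7 ± 5.71 CPM in 154Q-AXH (log2 fold changes -0.51 and -0.41, adjusted p = 0.00563 and 0.0148, edgeR). Sox2, a factor that maintains stem cells, fell by 0.21 on the log2 scale in 154Q (SE 0.06, adjusted p = 0.0483, edgeR) and was at -0.01 in 154Q-AXH. The largest change of the list in 154Q was a rise, of Neurog2 (1.07, SE 0.30, adjusted p = 0.0551, edgeR). It had 1.54 ± 0.166 CPM in WT, 3.22 ± 0.460 CPM in 154Q and 2.88 ± 1.25 CPM in 154Q-AXH. In 154Q 3 genes lay above 0 and 9 below, and in 154Q-AXH 5 and 7. Without 154Q-AXH-218, 1 gene was called higher in each mutant, and 2 and 1 lower, by edgeR. Bulk tissue does not show which cells carried these genes, no list of astrocyte markers was read, and a change of stem cells was not tested. Of 15 genes of neuroblasts and immature neurons, 1 was higher and 1 lower in 154Q and 0 were called in 154Q-AXH by edgeR, where 4 had an unadjusted p under 0.05. The higher one was Dpysl3, a collapsin response mediator of growing axons, with 64.8 ± 4.91 CPM in WT, 102 ± 9.63 CPM in 154Q and 86.3 ± 13.7 CPM in 154Q-AXH (log2 fold change 0.65 in 154Q, SE 0.11, adjusted p = 0.00635, edgeR). The lower one was Neurod2, a bHLH factor of excitatory neurons (log2 fold change -0.50, SE 0.13, adjusted p = 0.0434, edgeR).

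The lists of cell division showed few calls. Over all tested genes 6.06% were called in 154Q and 3.61% in 154Q-AXH, and 20.6% and 18.7% had an unadjusted p under 0.05. Of 20 genes of G1/S and replication, 1 was lower in 154Q and 0 were called in 154Q-AXH by edgeR (3 at an unadjusted p under 0.05), and 16 and 17 of the 20 lay below 0, with medians of -0.11 and -0.14. The 1 called was Mcm6, a subunit of the same helicase ring as Mcm2, at 20.03 ± 1.95 CPM in WT, 12.01 ± 0.179 CPM in 154Q and 16.8 ± 4.78 CPM in 154Q-AXH (log2 fold change -0.74 in 154Q, SE 0.17, adjusted p = 0.0249, edgeR). Of 30 genes of G2/M, Cenpa, the histone H3 variant of centromeres, was lower in both mutants (log2 fold changes -0.69 and -0.70, adjusted p = 0.0116 and 0.0111, edgeR). Cenpe, a mitotic kinesin, was higher in 154Q (0.47, SE 0.12, adjusted p = 0.0431, edgeR). The list medians were -0.01 in 154Q and -0.12 in 154Q-AXH, where 22 of 30 genes lay below 0.

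**Figure D4:**
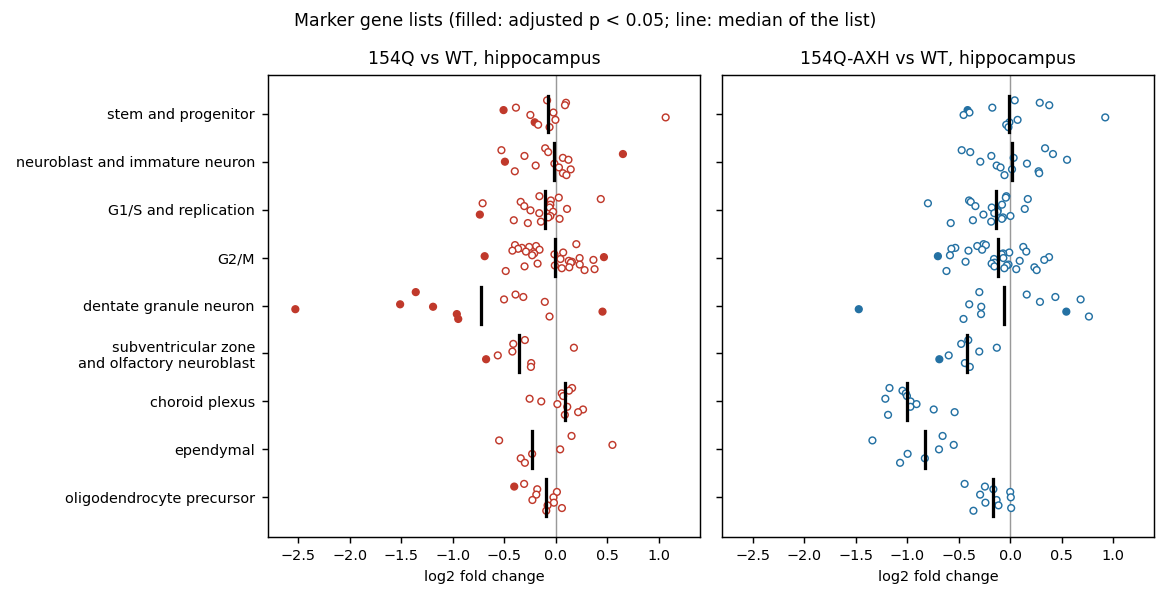
Log2 fold change against WT in hippocampus for each gene of 9 marker lists (points, filled where the adjusted p is under 0.05 by edgeR) and the list median (black line), for 154Q on the left and 154Q-AXH on the right. The dentate granule neuron median was -0.73 in 154Q and -0.06 in 154Q-AXH, and the choroid plexus median was 0.09 and -1.003.

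Mature granule neurons of the dentate gyrus have markers of their own. Of 12 dentate granule neuron genes, 6 were lower and 1 higher in 154Q (median -0.73) and 1 lower and 1 higher in 154Q-AXH (median -0.06). Among all tested genes 6.06% and 3.61% were called in these comparisons. Like the other lists, this one was chosen with earlier results of these data known, and no set test was run. Plk5, a neuronal member of the polo-like kinases, was at 25.5 ± 2.26 CPM in WT, 4.41 ± 0.796 CPM in 154Q and 9.24 ± 3.17 CPM in 154Q-AXH (log2 fold changes -2.53 and -1.47, adjusted p = 6.12e-05 and 0.00151, edgeR). Stxbp6 and Lct fell by 0.96 and 1.51 on the log2 scale in 154Q (adjusted p = 0.0116 and 0.0130, edgeR), and had values of -0.28 and -0.40 in 154Q-AXH, not called. Rspo3, a Wnt pathway ligand, was higher in both (0.45 and 0.54, adjusted p = 0.0165 and 0.00642, edgeR). Between the mutants all 12 lay higher in 154Q-AXH, with a median of 0.79, 10 at an unadjusted p under 0.05 (7.43% of all tested genes) and 0 called by edgeR (0.0184%). Mouse 154Q-AXH-218, with the highest sum of these markers, carried part of this. Without it all 12 still lay higher, with a median of 0.50 and 9 at an unadjusted p under 0.05, and the median of 154Q-AXH against WT was -0.29, with 5 genes called lower and 1 higher by edgeR. Of 7 genes that mark the hippocampus as a whole, 4 of them shared with the dentate list, 3 were lower in 154Q and 1, the endoplasmic reticulum protein Wfs1 of CA1 neurons, in 154Q-AXH (log2 fold changes -1.59 and -1.60). C1ql2, a synaptic protein of mossy fibres, was among the 3 in 154Q (-1.36, adjusted p = 0.0136, edgeR).

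Several members are also carried by cells outside the dentate gyrus, and their markers gave the following values. They are set against 6.06% and 3.61% of all tested genes called in 154Q and 154Q-AXH, and 20.6% and 18.7% at an unadjusted p under 0.05. The 8 markers of subventricular zone and olfactory neuroblasts summed to 89.9 to 96.1 CPM in WT, 68.9 to 73.1 CPM in 154Q and 49.8 to 79.4 CPM in 154Q-AXH, all mutant libraries below WT, with 1 gene lower in each mutant and medians of -0.36 and -0.42. That gene was Dlx6os1 (log2 fold changes -0.68 and -0.69, adjusted p = 0.00319 and 0.00267, edgeR), a transcript antisense to Dlx6, whose reads these counts do not separate from its partner's. Of 11 oligodendrocyte precursor markers, which mark the main dividing glia, C1ql1 was lower in 154Q (-0.40, adjusted p = 0.0358, edgeR), 0 were called in 154Q-AXH (5 at an unadjusted p under 0.05), and the sums were 331 to 362, 314 to 347 and 256 to 349 CPM in WT, 154Q and 154Q-AXH. The 13 endothelial and mural markers, of cells that can carry Nes, had 0 calls by edgeR (3 and 2 at an unadjusted p under 0.05), with sums of 381 to 433, 327 to 398 and 350 to 423 CPM and 12 of 13 genes below 0 in 154Q. Choroid plexus markers ranged from 1564 to 5762 CPM in WT, 1319 to 4297 CPM in 154Q and 80.8 to 3576 CPM in 154Q-AXH, with 0 of 11 called by edgeR and 0 at an unadjusted p under 0.05. Ependymal (7 of 8 tested), Cajal-Retzius (5) and microglial (8) lists had 0 calls by edgeR in either mutant, and ependymal genes had a median of -0.83 in 154Q-AXH, with 4 at an unadjusted p under 0.05. Of the 7 cerebellar, 3 tested brainstem and 6 striatal markers 0 were called, and of 6 cortical markers Lamp5 was lower in both mutants (-1.13 and -0.85). The part of these cell types in the members' values was not tested.

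Outside the hippocampus, the difference of Eomes in the cerebellum was the clearest among the members. Eomes was at 24.1, 23.9, 36.6 and 42.5 CPM in the 4 WT mice. It was at 9.72, 14.9, 11.95 and 12.99 CPM in the 4 154Q mice, and at 11.6, 8.30, 13.5 and 14.1 CPM in the 4 154Q-AXH mice. Every mutant library lay below every WT library. The log2 fold changes were -1.36 (SE 0.20, adjusted p = 0.000942) and -1.43 (SE 0.20, adjusted p = 0.00207) by edgeR's quasi-likelihood F test, adjusted by Benjamini-Hochberg over all tested genes, which corresponds to 0.391 and 0.372 of the WT level. Over the cerebellum, 5.22% of genes were called in 154Q and 2.21% in 154Q-AXH, against 2 and 1 of the 9 members. Both Eomes calls held in each of 19 alternative fits, and the difference between the mutants was not called (0.0335% of genes were). The sizes depended on the number series, as WT-220 and WT-221 lay above WT-70 and WT-77. With the series as a term the log2 fold changes were -0.95 in 154Q (adjusted p = 0.0045, edgeR) and -1.74 in 154Q-AXH (adjusted p = 6.80e-05, edgeR). The difference between the mutants was then -0.80 (SE 0.24, adjusted p = 0.125, edgeR).

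The other member called in cerebellum was Mcm2 in 154Q. It was at 9.35, 9.78, 9.87 and 10.7 CPM in WT, at 7.78, 8.57, 7.74 and 8.47 CPM in 154Q and at 8.51 to 9.66 CPM in 154Q-AXH. The 154Q libraries lay below the WT range and the 154Q-AXH libraries overlapped it. The log2 fold change was -0.29 in 154Q (SE 0.07, adjusted p = 0.0227, edgeR) and -0.12 in 154Q-AXH (SE 0.07, adjusted p = 0.436, edgeR), and the call in 154Q held in 14 of 19 alternative fits, and not without WT-221, 154Q-69 or 154Q-75.

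In striatum, Dcx again lay high in 154Q. It was at 21.7, 22.0, 16.5 and 19.2 CPM in the 4 WT mice and at 26.1, 32.3, 45.6 and 23.9 CPM in the 4 154Q mice, with no overlap. The 154Q-AXH libraries, at 18.9 to 27.0 CPM, overlapped both groups. The log2 fold change in 154Q was 0.69 (SE 0.18, adjusted p = 0.0476, edgeR), where 5.68% of genes were called, and it passed the threshold in 6 of 19 alternative fits. Without 154Q-75 it was 0.47 (adjusted p = 0.0963, edgeR), and leaving out any 1 WT mouse, 154Q-69, 154Q-71, 154Q-AXH-207 or 154Q-AXH-209 also ended the call, with adjusted p of up to 0.101 by edgeR. In 154Q-AXH striatum, where 1.35% of genes were called, 0 of the 8 members tested were, and 0 were called between the mutants, where edgeR called 0 genes in all (601 genes, 3.26%, and 1 member at an unadjusted p under 0.05). Eomes did not pass the filter on low counts there.

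Brainstem and cortex gave 0 members called by edgeR in any comparison, with 0.538% and 0.0138% of genes called in brainstem against WT and 11.1% and 7.15% in cortex, and 0 genes called between the mutants in either region. At an unadjusted p under 0.05 there were 2 and 0 members against WT in brainstem, with 10.9% and 6.73% of genes, and 2 and 2 in cortex, with 25.3% and 20.5% of genes. Between the mutants there was 1 in each region, with 5.35% and 6.67% of genes. DESeq2 also called 0 members in these regions. Among them, Prox1 in 154Q cortex had a log2 fold change of -0.39 (SE 0.16, adjusted p = 0.134, edgeR). Sox11 had positive log2 fold changes in 154Q in each of the 5 regions, from 0.03 in brainstem to 0.36 in striatum, and none was called by edgeR.

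**Figure D5:**
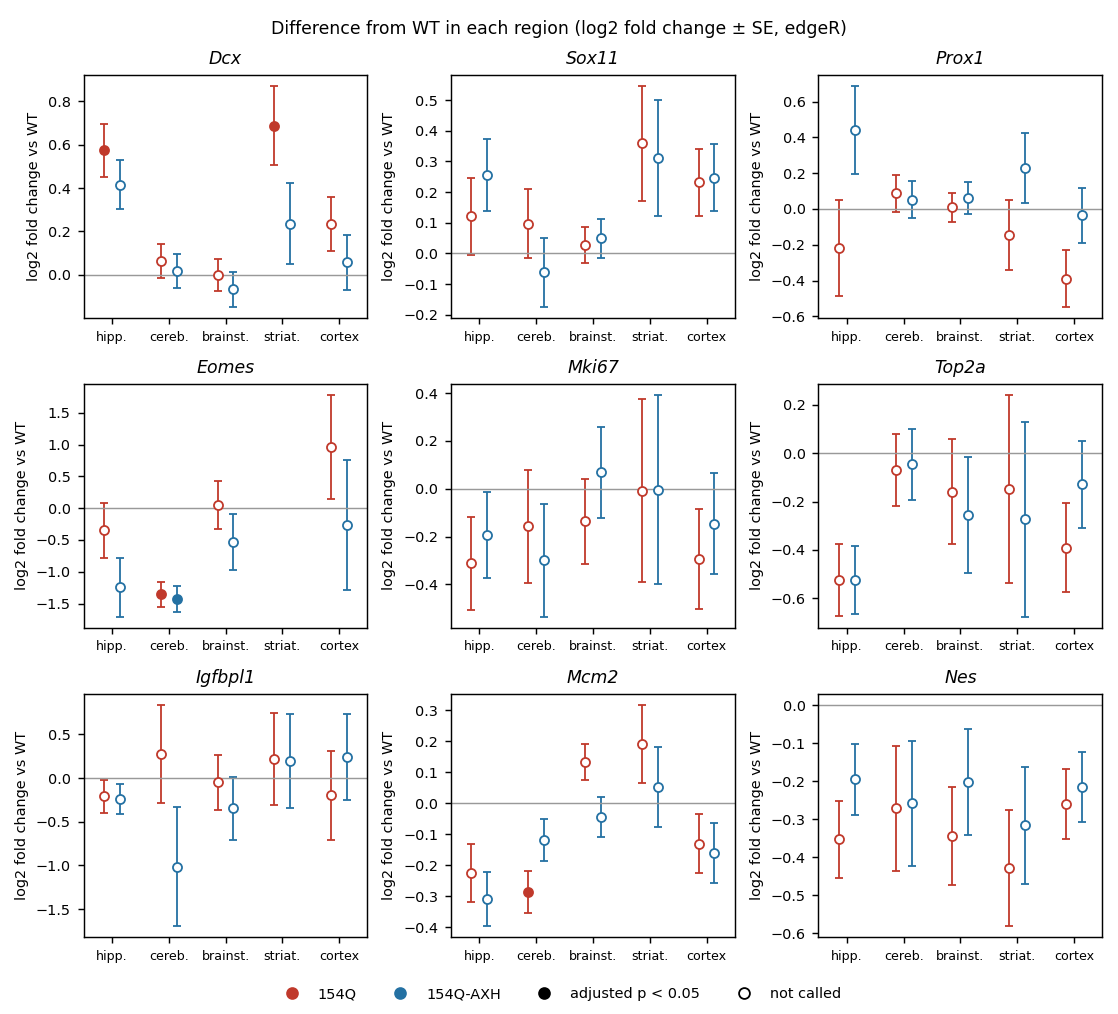
Log2 fold change against WT with its SE for each gene and region, in 154Q (red) and 154Q-AXH (blue), filled where the adjusted p is under 0.05 by edgeR. Filled points are Dcx in hippocampus and striatum, Eomes in cerebellum in both mutants, and Mcm2 in cerebellum, and Eomes has no striatal point because it was not tested there.

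Whether the hippocampal differences stood apart from the other regions was tested directly, as the difference of the genotype effect in hippocampus from its mean over the other 4 regions. None of the 9 members passed this test by edgeR in either mutant, where 0.882% of 24255 genes did in 154Q and 0.437% in 154Q-AXH, and DESeq2 also called 0 members (1.31% and 0.957% of genes). At an unadjusted p under 0.05, Dcx and Mcm2 were found in both mutants, where 9.23% and 8.64% of genes were. The Dcx effect in hippocampus lay above that mean by 0.32 in 154Q (SE 0.16, adjusted p = 0.529) and by 0.36 in 154Q-AXH (SE 0.15, adjusted p = 0.459), and the Mcm2 differences were -0.21 (SE 0.10, adjusted p = 0.481) and -0.24 (SE 0.09, adjusted p = 0.399), all by edgeR. With mouse as a block, the Dcx difference in 154Q was 0.27 with an unadjusted p = 0.103 by edgeR, and the other 3 stayed under 0.05. By region, the 154Q effect on Dcx was 0.57 in hippocampus, 0.69 in striatum, 0.23 in cortex, 0.06 in cerebellum and -0.00052 in brainstem. Mouse 154Q-76 entered the other regions and not the hippocampus.

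Other genes resembled Dcx and Mki67 across the 15 groups of region and genotype. Likeness was the root mean square difference of log2 CPM after centring each gene on its own mean, over 58 libraries and 24246 genes. The genes nearest to Dcx were Grip1 (0.14), Myc (0.17) and Chd3 (0.18), and those nearest to Mki67 were Dgkb (0.23), Olfr111 (0.28) and Ripor2 (0.30). Among the members themselves, Mki67 lay nearest to Top2a (0.34), Dcx nearest to Sox11 (0.38), and Mcm2 nearest to Nes (0.41), while Eomes lay at least 1.78 from every other member.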

How the data were processed

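Reads were trimmed by the authors (Trimmomatic 0.36) and aligned with STAR 2.7.2d to GRCm38.p6, and raw counts of read pairs per gene were deposited. Tools and versions come from the submitters' processing notes, which also list DESeq2 1.28.1. The column that ignores strand was taken, since the first strand held 48.9% to 50.1% of stranded counts. The 4 summary lines and 1 human transgene line were left out. Libraries held 75.3% to 81.2% of read pairs on genes, with regional medians of 35.3 M (striatum) to 89.6 M (brainstem) counted pairs. Of 54232 genes, 54079 matched a symbol (GENCODE for GRCm38).

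Groups and mouse numbers came from the labels. Each region was fitted as 1 model of 3 genotypes with edgeR 4.0.16 in R 4.3.3 (filterByExpr, TMM, quasi-likelihood F test, Benjamini-Hochberg, called under 0.05), after a test on simulated data. The SE was taken as |log2 fold change| over the root of F. CPM was scaled by TMM within a region, and log2 CPM (prior count 2) and the brainstem and hippocampal marker sums over all libraries. Every mouse gave several regions, so mouse was a block in an alternative of the fits across regions, and within a region each mouse occurs once. All 9 members are named, with at most 4 called genes of each list in hippocampus by lowest adjusted p against WT, the 3 genes most like Dcx and Mki67, and library checks. Neurog2 is named as the largest change of its list in 154Q. The members and lists were chosen with earlier results of these data known. Alternatives were DESeq2 1.42.0, its size factors, no count filter, 2 genotypes only, covariates (number series, Xist, Ttr), the mixed library included, doubtful cortical libraries left out or exchanged, and each mouse left out. Those for Eomes and Mcm2 in cerebellum and Dcx in striatum, and the dentate list without 154Q-AXH-218, were chosen after seeing the data. The names of the cortical files labelled 154Q-76 and 154Q-AXH-207 each give the other animal, and labels were followed.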

Additional observations from a re-analysis of the deposited data

Results flagged for a closer look

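Within groups of 4 libraries, 6 of 117 combinations of member, region and genotype had 1 library whose gap to its nearest neighbour exceeded Dixon's 95% limit. Chance alone picks out about 1 group in 20. Eomes was at 11.03 CPM in the striatum of 154Q-75, where the other 3 mice had 0.0715 to 0.259 CPM. In WT striatum, WT-220 had 1.43 CPM of Eomes against 0.119 to 0.252 CPM in the other 3, and 7.47 CPM of Igfbpl1 against 1.52 to 2.30 CPM. Cortical Eomes was at 0.571 CPM in WT-77 against 0.0485 to 0.116 CPM. In hippocampus, Mki67 was at 6.18 CPM in 154Q-AXH-218 against 4.06 to 4.40 CPM, and Mcm2 was lowest in WT-70, at 5.08 CPM against 6.01 to 6.03 CPM. The difference of the genotype effect between hippocampus and the other regions passed the threshold for 0 members.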

How the results depend on the processing

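The count of members called in hippocampus of 154Q was 1, and it was 3 with DESeq2 (Dcx higher, Top2a and Nes lower) and 2 with the Ttr level as a covariate (Dcx and Nes). It ranged from 0 to 2 with 1 mouse left out, 0 without 154Q-69, and 2 without WT-77 (Top2a added) or 154Q-AXH-218 (Nes added). With the mixed library it was also 1, but the gene was Top2a (-0.66, adjusted p = 0.0408, edgeR) and not Dcx. In 154Q-AXH the count of 0 became 4 with DESeq2 (Dcx higher, Eomes, Top2a and Mcm2 lower) and 1 with the number series as a covariate (Top2a), and ranged from 0 to 1 with 1 mouse left out, 1 without WT-70 or 154Q-69 (Dcx) or without WT-77 (Top2a). In the other regions the 3 calls in 154Q became 1 in fits of only the 2 genotypes, 2 with the number series (Prox1 higher and Eomes lower in cerebellum), 2 with the Xist or Ttr level (Dcx in striatum lost) and 4 with the cortical labels of 154Q-76 and 154Q-AXH-207 exchanged (Sox11 higher in cortex added), and ranged from 1 to 3 with 1 mouse left out (1 without WT-221, 154Q-69 or 154Q-75), and the 1 call in 154Q-AXH became 2 with the number series (Nes lower in striatum). The cause of these changes was not tested. Among the members' hippocampal differences from WT the sign turned in 3 cases, none of a called value. Prox1 in 154Q was 0.00 (0.000225) with the number series, Prox1 in 154Q-AXH was -0.061 with the Ttr level, and Igfbpl1 in 154Q-AXH was 0.14 with the number series. Signs also turned in other comparisons, which were not counted. With the number series, Nes in 154Q cerebellum went from -0.27 to 0.02. Eomes between the mutants in hippocampus went from -0.89 to 0.89.

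With mouse as a replicate block in the fits across regions, the count of members whose effect in hippocampus differed from the other regions stayed at 0 in both mutants, and the WT count against striatum was 6 in place of 5, with Mki67 and Mcm2 gained and Eomes lost. The other WT counts were 8, 7 and 7 with and without the block. With 1 WT mouse left out, the counts were 8 against cerebellum, 6 to 7 against brainstem (6 without WT-220, Nes lost), 4 to 6 against striatum (4 without WT-70 or WT-77, 6 without WT-220) and 6 to 7 against cortex (6 without WT-70 or WT-77, Mcm2 lost). Groups of 3 or 4 mice, and counts as low as 52 per hippocampal library for Eomes and 174 for Top2a, limit the precision of these differences.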
